A study of Danio rerio with 12 samples.

Results

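The period genes (per) and nr1d genes, which encode the REV-ERB nuclear receptors, are among the transcriptional repressors of the vertebrate circadian clock. In that clock the activators CLOCK and BMAL (arntl in the gene names used here) switch on per, cry and nr1d genes. PER proteins act with cryptochromes to block the activators, and REV-ERB receptors repress arntl genes at sites they share with the ROR receptors. In zebrafish, cells of most tissues hold clocks that respond to light directly, and per2 is known as a light-induced member of the family. Here 9 genes were examined, per1a, per1b, per2, per3, nr1d1, nr1d2a, nr1d2b, nr1d4a and nr1d4b, of 32349 genes in the deposited tables. They were matched by gene name, and all 9 were among the 26508 genes that passed the filter on low counts. The members were chosen by their measured levels, with their differences between libraries of the same group already known, so those differences are given as a description with no test.

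The libraries were RNA-seq of pools of 25 whole zebrafish (Danio rerio) larvae at 3 days post fertilization, 12 pools in 4 groups of 3. The groups were Tg(ifih1_mut) larvae stimulated with poly I:C, control larvae stimulated with poly I:C, unstimulated Tg(ifih1_mut) larvae and unstimulated control larvae. Tg(ifih1_mut) is written ifih1mut below. Poly I:C is a synthetic double-stranded RNA, and ifih1 encodes MDA5, a sensor of such RNA in the cytoplasm. Of the transgene's promoter and allele, the strain, how much poly I:C was given, how and for how long, the light cycle and the time of day at collection, none is given in the sources used here. Each pool mixed all tissues of 25 larvae, so fewer cells of a type and less RNA per cell cannot be told apart. The labels do not say whether pools shared parents or a collection day. The p-values below therefore weigh differences only against the spread between these pools, which may be technical.

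The 9 genes are annotated as protein-coding and lie apart in the genome; positions are the deposited ones, for which no build is named in the sources used here. On the minus strand are per1a (ENSDARG00000056885, chromosome 10, 22809715 to 22831611) and per2 (ENSDARG00000034503, chromosome 2, 48309600 to 48375342). On the plus strand are per1b (ENSDARG00000012499, chromosome 7, 50822465 to 50847296) and per3 (ENSDARG00000010519, chromosome 11, 39959039 to 40021080). Of the nr1d genes, nr1d1 (ENSDARG00000033160, chromosome 3, 23488652 to 23496223), nr1d2a (ENSDARG00000003820, chromosome 16, 50089417 to 50111057) and nr1d2b (ENSDARG00000009594, chromosome 19, 17400263 to 17407115) are on the plus strand. The minus strand holds nr1d4a (ENSDARG00000031161, chromosome 23, 35795759 to 35821521) and nr1d4b (ENSDARG00000059370, chromosome 11, 1944729 to 1967438). Only per3 and nr1d4b share a chromosome.

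Library totals ran between 31876869 and 100839015 counts. The ifih1 transcript, which checks the labels, was at 17.5, 25.3 and 33.3 CPM (the count scaled to a common library size) in stimulated and 11.1, 14.0 and 17.1 CPM in unstimulated ifih1mut pools, against 2.26, 1.92 and 2.02 CPM in stimulated and 2.29, 2.73 and 1.99 CPM in unstimulated control pools. Within each group the libraries differed along the order of their library numbers in the file headers. The libraries with the lowest, middle and highest number of a group are called the first, the second and the third here. Nothing read here says what the numbers stand for. Over all genes tested, the median share of the sum of squares of a gene's log2 level that lay between the 3 positions was 36.9%, and the median share between the 4 groups 15.1%. The xenobiotic-response gene cyp1a also differed by position, at 1010 to 1252 CPM in the third libraries and 17.1 to 84.4 CPM in the other 8. Its first and second libraries overlapped. Its part in the members' values was not tested.

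Of the 9 genes, all except nr1d4a and nr1d4b stood lowest in the second library, in between in the first and highest in the third library of every group. For 7 of the 9 members the 4 libraries of each position did not overlap with those of the others in this order, as for 0.355% of all 26508 genes (94 genes). Since the members were picked with this order in view, nothing is read from that share. The size differed between genes. On the log2(CPM + 0.5) scale, the third library exceeded the second by 2.32 ± 0.35 for per1a and by 0.65 ± 0.07 for nr1d2b (mean ± SD over the 4 groups), the largest and smallest of the 7 differences. The pseudocount of 0.5 makes such differences slightly too small for low genes such as per1a.

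**Figure D1:**
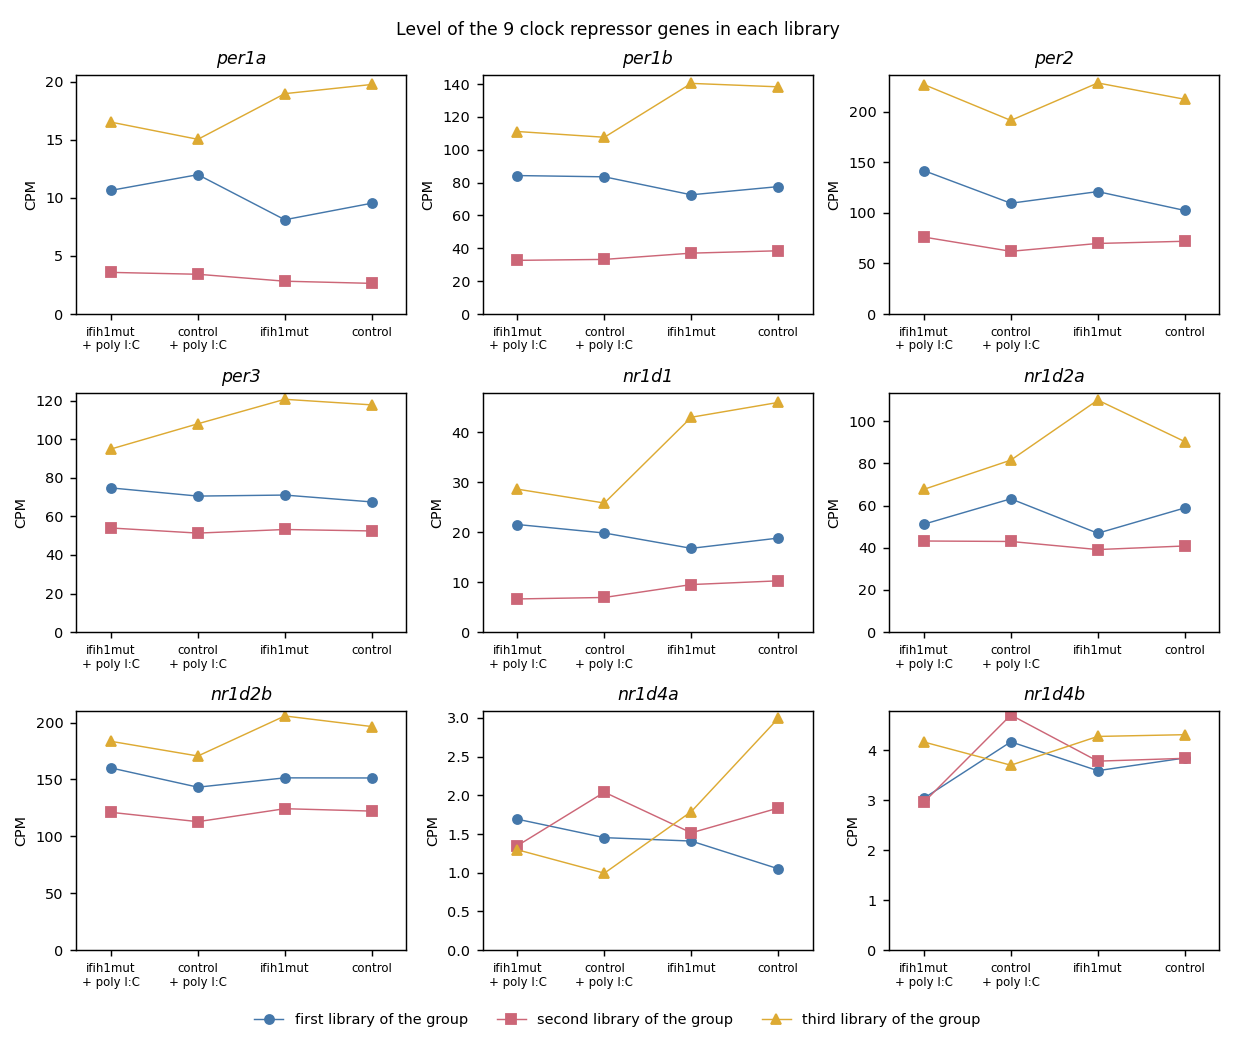
Level in CPM (vertical axis, from 0) of each of the 9 genes in the 12 libraries, by group (horizontal axis), with blue circles for the first, red squares for the second and yellow triangles for the third library of a group. Lines join libraries of the same position; in 7 panels the 3 lines do not meet, and in those of nr1d4a and nr1d4b they cross.

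Among the period genes, per1a showed the largest relative range. It was measured at 10.6, 3.58 and 16.5 CPM in the first, the second and the third stimulated ifih1mut libraries and at 11.99, 3.42 and 15.03 CPM in the stimulated control libraries. Unstimulated ifih1mut libraries gave 8.11, 2.82 and 19.0 CPM, and unstimulated control libraries 9.53, 2.64 and 19.8 CPM. The second library was therefore the lowest of its group in 4 of 4 groups, and the groups overlapped fully. Of the 26508 genes, 6 had a larger mean difference between the third and second libraries. The members were picked with such differences known, so nothing is read from this rank.

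Its paralogue per1b, likewise a partner of cryptochromes, followed the same order at higher levels. Stimulated ifih1mut libraries gave 84.3, 32.7 and 111 CPM and stimulated control libraries 83.5, 33.2 and 108 CPM. The unstimulated values were 72.6, 37.1 and 140.4 CPM in ifih1mut and 77.6, 38.5 and 138 CPM in control larvae. The third library exceeded the second by 1.79 ± 0.10 and the first exceeded the second by 1.16 ± 0.21 (log2, SD over 4 groups). Per length of the gene model, per1b was above per1a in 12 of 12 libraries. That ratio was 6.60 to 8.48 in the first, 8.65 to 13.8 in the second and 6.38 to 7.02 in the third libraries, so the second libraries held the least per1a relative to per1b.

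The light-induced member per2 was at 142, 75.97 and 227 CPM in stimulated ifih1mut libraries and at 109, 61.9 and 191 CPM in stimulated control libraries. Without poly I:C it was at 121, 69.7 and 228 CPM in ifih1mut and 102, 71.8 and 212 CPM in control libraries. The third minus second difference was 1.61 ± 0.07, with 1.57, 1.62, 1.70 and 1.56 in the 4 groups in that order. This was a narrow range beside that of per1a, whose group values ran between 1.99 and 2.69.

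The remaining period gene, per3, varied less. It stood at 74.8, 54.0 and 95.0 CPM in stimulated ifih1mut and 70.6, 51.4 and 108 CPM in stimulated control libraries. Unstimulated ifih1mut libraries gave 71.1, 53.2 and 121 CPM, and unstimulated control libraries 67.5, 52.5 and 118 CPM. The 4 second libraries lay within 51.4 to 54.0 CPM, while the third libraries spread over 95.0 to 121 CPM. For per3 the third minus second difference was 1.05 ± 0.17.

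Of the REV-ERB genes, nr1d1 (REV-ERB alpha) moved most. Its levels were 21.5, 6.63 and 28.6 CPM in stimulated ifih1mut and 19.8, 6.93 and 25.8 CPM in stimulated control libraries. In unstimulated libraries they were 16.8, 9.51 and 43.0 CPM in ifih1mut and 18.8, 10.3 and 46.0 CPM in control larvae. The third minus second difference was 2.02 ± 0.14, which 13 other genes exceeded. As for per1a, nothing is read from that rank. In the third position both stimulated libraries were below both unstimulated ones, and so they were in the second position, while in the first position they were above.

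The REV-ERB beta genes nr1d2a and nr1d2b varied over a smaller range from higher levels. For nr1d2a the values were 51.2, 43.2 and 67.7 CPM in stimulated ifih1mut, 63.2, 43.0 and 81.5 CPM in stimulated control, 46.9, 39.1 and 110 CPM in unstimulated ifih1mut and 58.8, 40.8 and 90.4 CPM in unstimulated control libraries. For nr1d2b they were 160.1, 121 and 184 CPM, then 143, 113 and 171 CPM, then 151, 124 and 206 CPM, and last 151, 122 and 197 CPM, with the groups in that order. The third minus second difference was 1.04 ± 0.35 for nr1d2a, with 0.64 in stimulated and 1.48 in unstimulated ifih1mut larvae. Of the 7 genes, nr1d2a had the largest share of its sum of squares, 11.9%, outside positions and groups.

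The other nr1d genes did not follow the order. The level of nr1d4a ran between 0.994 CPM (33 counts) and 2.99 CPM (95 counts), and both extremes were in the third position, of stimulated and of unstimulated control larvae. That of nr1d4b ran between 2.97 CPM (101 counts) and 4.71 CPM (157 counts), both extremes being in the second position. The third minus second difference was -0.01 ± 0.57 for nr1d4a and 0.11 ± 0.31 for nr1d4b, within the spread over the groups. In both genes an antisense gene overlaps the annotated span, with 5 counts for the partner of nr1d4a and 6 for that of nr1d4b over all 12 libraries, against the members' own 33 or more in each library. No role is given here for the nr1d4 genes beyond their family name.

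The share of the sum of squares between positions was 85.5% for nr1d2a, 90.8% for nr1d1, 92.8% for nr1d2b and 96.1% to 97.2% for the 4 period genes. It was 8.49% for nr1d4a and 14.9% for nr1d4b. The ranges of the 4 groups overlapped for all 9 genes, but how many of all genes do so was not counted, and nothing is read from it. Between groups the share was at most 5.07% in the 7 genes, and 11.4% and 39.1% in nr1d4a and nr1d4b. Most of the variation thus lay between positions in the 7 genes and elsewhere in nr1d4a and nr1d4b. The members were picked with their position differences known, so nothing is read from this split. The log2 level of nr1d4b varied little, spanning 0.59 over the libraries beside a median of 0.69 over all genes tested.

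Compared per kilobase of gene model, nr1d2b had the highest level, with a median of 38.0 CPM per kilobase over the 12 libraries (28.3 to 51.6). It was followed by per2 at 21.3 (11.4 to 42.1), nr1d2a at 13.5 (9.59 to 27.0) and per1b at 10.4 (4.20 to 18.0). The next pair was nr1d1 at 6.61 (2.27 to 15.7) and per3 at 6.11 (4.43 to 10.4), then nr1d4b at 1.55 (1.19 to 1.89), per1a at 1.37 (0.358 to 2.68) and nr1d4a at 0.744 (0.499 to 1.502). Each of the first 4 was above the next gene in 12 of 12 libraries, as was per3 above nr1d4b. The order of nr1d1 and per3 was not settled, since nr1d1 was the higher in 6 of 12 libraries. Neither were those of nr1d4b over per1a (7 of 12) and of per1a over nr1d4a (8 of 12).

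In most members the third minus first difference, with its sign kept, was lower in the stimulated than in the unstimulated groups. This pattern was chosen after the values were seen and was not tested. For nr1d1 the third minus first difference was 0.40 and 0.37 in stimulated ifih1mut and control larvae, against 1.33 and 1.27 in unstimulated ifih1mut and control larvae (log2(CPM + 0.5)). For per1a it was 0.61 and 0.31 with poly I:C, against 1.18 and 1.01 without, and for per1b 0.40 and 0.36, against 0.95 and 0.83. The gap was smaller for per2, at 0.68 and 0.80 with poly I:C and 0.91 and 1.05 without. In 8 of 9 members, all except nr1d4b, both stimulated groups lay below both unstimulated groups. Of all genes tested 23.4% did so (6195), as did 22 of 34 other clock genes.

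Both ends contributed to this in several members. In the first position per1b was at 84.3 and 83.5 CPM in the stimulated libraries and 72.6 and 77.6 CPM in the unstimulated ones, while in the third it was at 111 and 108 CPM and at 140.4 and 138 CPM. Between the third and second libraries, both stimulated groups lay below both unstimulated ones for 7 of 9 members, all except per2 and nr1d4b, against 27.1% of all genes and 14 of 34 other clock genes. With 1 library per group and position these differences have no replicate within a genotype, and the genotypes are the only repeats.

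**Figure D2:**
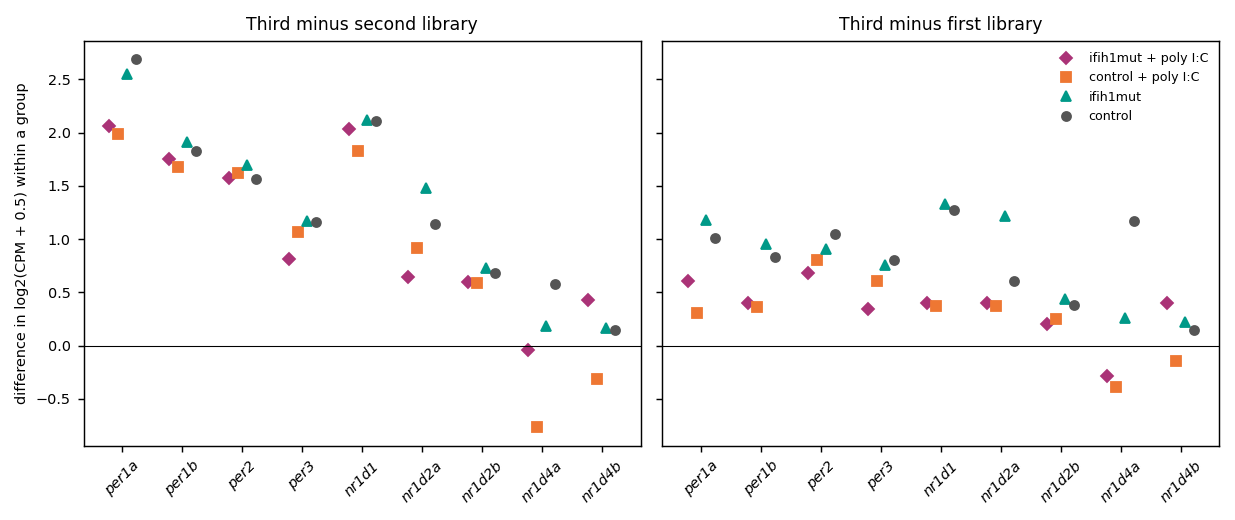
Difference in log2(CPM + 0.5) between the third and second library (left) and between the third and first library (right) of each group, for the 9 genes on the horizontal axis. Purple diamonds and orange squares are stimulated ifih1mut and control larvae, and teal triangles and grey circles are unstimulated ifih1mut and control larvae; on the right, diamonds and squares lie below triangles and circles for all genes except nr1d4b.

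Other clock genes, from lists drawn up with earlier results of these data known, were set beside the members. Of 39 such genes matched in the tables, 34 were tested. Of these, 6 of 34 showed the members' order with no overlap between positions, against 0.355% of all genes. They were the cryptochrome genes cry1aa, cry1ab and cry2, the D-box-binding factor tefa, and ciarta and ciartb, named for a repressor of CLOCK and BMAL. The level of cry1aa, known in zebrafish as light-induced, was 104 to 120 CPM in the first, 75.6 to 94.1 CPM in the second and 136 to 163 CPM in the third libraries. For ciarta the ranges were 53.3 to 60.7, 35.1 to 38.7 and 75.9 to 89.4 CPM. A separate list held 3 light-inducible repair genes, xpc, ddb2 and neil1. Of these, 0 of 3 showed the members' order with no overlap, against 0.355% of all genes. The second libraries were below all others in 0 of 3, against 2.38% of all genes. Within groups, the second library was the lowest in 4 of 4 groups for xpc, in 1 for ddb2 and in 0 for neil1. Beside such small shares, 0 of 3 says little about these genes. The part of light in the members' values was not tested.

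In 13 of 34 the 4 second libraries were below all other libraries, against 2.38% of all genes and 7 of 9 members. Besides the 6 these were cry5 and cry-dash of the photolyase and cryptochrome family, the PAR bZIP genes dbpa, dbpb and tefb, and the casein kinase genes csnk1da and csnk1db, whose products phosphorylate PER proteins. On average the third minus second difference was 1.20 for cry5, 1.29 for dbpb, 0.13 for csnk1da and 0.27 for csnk1db. The kinase genes shared the low second libraries and not the whole order, since the third minus first difference was -0.01 for csnk1da and 0.04 for csnk1db.

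In 4 of 34 the second libraries were above all others, against 2.29% of all genes and 0 of 9 members. The activator gene arntl1a was one, at 35.3 to 38.8 CPM in the second and 31.1 to 34.0 CPM in the other libraries. Another was cry1ba, at 70.2 to 87.3 CPM against 37.1 to 62.9 CPM, and also the receptor gene rorcb, at 34.9 to 38.6 against 19.2 to 31.3 CPM. The last, fbxl3l, is named for an F-box protein that marks cryptochromes for destruction and was at 2.58 to 3.55 against 1.64 to 2.24 CPM. The remaining activators clocka, clockb and arntl1b had values of 0.02, 0.18 and -0.03 for the third minus second difference, averaged over the groups. That of arntl1a was -0.20 ± 0.06. Among the members this difference was -0.01 in nr1d4a, 0.11 in nr1d4b and 0.65 or more in the other 7. The members were picked with such differences known, so nothing is read from setting them beside the activator genes.

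No listed gene of light-sensing cells showed the members' order without overlap between positions, which 0.355% of all genes did. The summed level of 17 photoreceptor and pineal genes (exorh was not matched) was 4446 to 5646 CPM in the first, 3508 to 4618 CPM in the second and 2243 to 4401 CPM in the third libraries. By group it was 3019 to 4707 CPM in stimulated ifih1mut and 2243 to 4446 CPM in stimulated control larvae, against 4170 to 5646 CPM in unstimulated ifih1mut and 3924 to 5449 CPM in unstimulated control larvae. None of the 17 had its second libraries below all others or above all others, against 2.38% and 2.29% of all genes. Beside such small shares, 0 of 17 says little about these genes. The pineal melatonin-synthesis gene aanat2 was at 1.98 to 3.16 CPM. The part of these cells in the members' values was not tested.

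**Figure D3:**
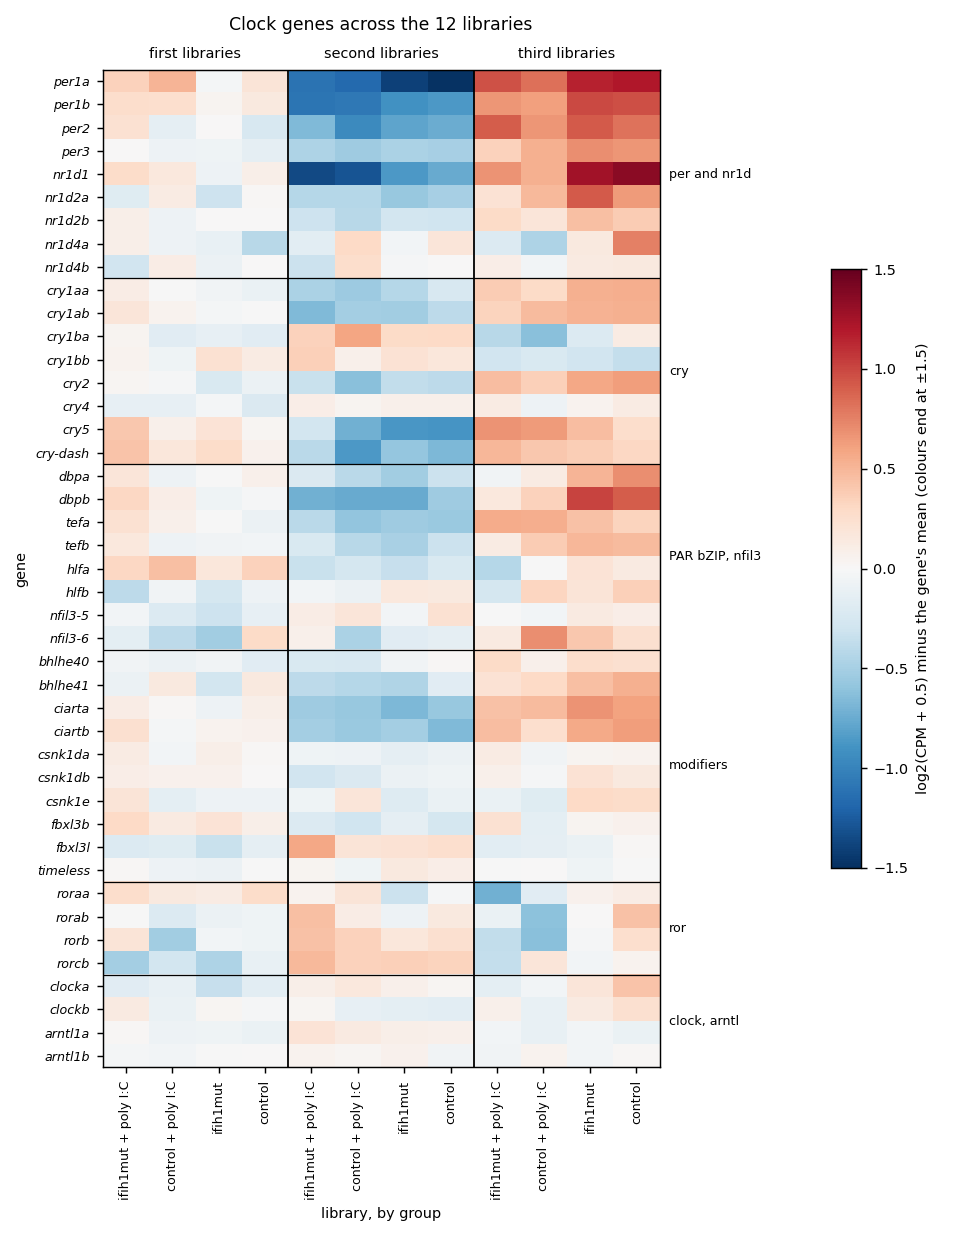
Level of the 9 members and 34 other clock genes (rows, by list) in the 12 libraries (columns, by position and then group), as log2(CPM + 0.5) minus the gene's mean over the libraries. Blue is below and red above the mean; the rows of per1a to nr1d2b, cry1aa, cry1ab, cry2, tefa, ciarta and ciartb are blue in the second and red in the third libraries, and arntl1a and rorcb are not.

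The genes with the profile most like that of each member were found by the root mean square difference of centred log2(CPM + 0.5) over the 12 libraries, among 15134 named genes other than the members with an average log2 CPM of at least 0. Closest to per3 were abca1a, a cholesterol exporter gene (0.09), and ciarta (0.11). For per1b and nr1d1 the nearest of these were dbpb (0.25 and 0.34), a PAR bZIP gene, and ncam3 (0.30 and 0.32), named for a neural cell adhesion molecule. The nearest of them to per1a were ankrd9 (0.40) and ncam3 (0.47), and those of per2 were vwf, which encodes von Willebrand factor (0.22), and the small heat-shock gene hspb6 (0.24). Those of nr1d2a were pfkfb4b (0.12), of a family that regulates glycolysis, and the kinase gene stk35 (0.13). The median over all genes compared lay between 0.47 (per3) and 1.00 (per1a) for these 6 members. For nr1d4a, whose centred values span 1.23, hecw1b (0.14) and adgrl3.1 (0.16) were nearest, beside a median of 0.36. Among themselves, the closest members were per3 and nr1d2a (0.14) and then per1b and nr1d1 (0.18). Among the members, per1b (0.28) and nr1d1 (0.32) were nearer to per1a than any of the 15134 genes compared, and per1b and nr1d1 were nearer to each other than to dbpb or ncam3. The members were picked with their shared order in view, so nothing is read from their likeness to each other.

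Comparisons of genotype and poly I:C were then made for the 9 genes, with p-values adjusted over all 26508 genes. In edgeR's quasi-likelihood test 0 of 9 passed an adjusted p under 0.05 in each of 5 contrasts of genotype and poly I:C, so no difference could be called beyond the spread between pools. None had an unadjusted p under 0.05 there (0 of 9), and DESeq2 called 0 of 9 and had 0 of 9 at an unadjusted p under 0.05 in each contrast. The members' share of calls, 0 of 9, is read beside the share of all genes. For ifih1mut against control larvae this was 0.00377% (1 gene, ifih1), and for poly I:C in control larvae it was 0% by edgeR, which had 367 genes at an unadjusted p under 0.05, and DESeq2 also called 0. It was 0.6% for ifih1mut against control larvae with poly I:C, 0.69% for poly I:C in ifih1mut larvae and 0.155% for the test of whether that effect differed by genotype. With so few calls in the background, 0 of 9 says little about the members.

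Without stimulation, nr1d1 averaged 23.1 ± 17.6 CPM in ifih1mut and 25.0 ± 18.7 CPM in control larvae, and per2 140 ± 80.9 and 129 ± 73.8 CPM (SD, n = 3). Their log2 fold changes were -0.11 (SE 0.72) and 0.12 (SE 0.56). Both SDs exceed the difference of the means many times, and the libraries' order is the same in both genotypes. The fold changes of all 9 genes lay between -0.30 and 0.12, with a median of -0.02 beside 0.00 over all genes. Within the first, the second and the third positions nr1d1 differed by -0.16, -0.10 and -0.10, and per1b by -0.10, -0.05 and 0.02.

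With poly I:C, control larvae had 17.5 ± 9.67 CPM of nr1d1, against 25.0 ± 18.7 CPM without (SD, n = 3; log2 -0.51, SE 0.72, edgeR adjusted p = 1). Within positions the difference was 0.07, -0.53 and -0.82, so that the first libraries did not share the direction of the others. In ifih1mut larvae the same comparison gave 18.9 ± 11.2 CPM with poly I:C and 23.1 ± 17.6 CPM without (log2 -0.29, SE 0.72, edgeR adjusted p = 0.9999), with 0.35, -0.49 and -0.58 within the positions. For per1a the 3 values were 0.32, 0.32 and -0.38 in control and 0.37, 0.30 and -0.19 in ifih1mut larvae. In both genotypes per1a was thus higher with poly I:C in the first and second libraries and lower in the third. The poly I:C comparisons in control and in ifih1mut larvae have no library in common, and each shares its libraries with the comparisons between genotypes.

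Between the stimulated genotypes, per2 averaged 148 ± 75.5 CPM in ifih1mut and 121 ± 65.4 CPM in control larvae (SD, n = 3; log2 0.29, SE 0.56, edgeR adjusted p = 1). It was higher in the ifih1mut library at 3 of 3 positions, by 0.37, 0.29 and 0.24. With a term for library position in the model its log2 fold change was 0.31 (SE 0.08) and it was not called (edgeR adjusted p = 0.2539). No other member had the same sign at all 3 positions except nr1d2b, at 0.16, 0.10 and 0.10 (log2 0.12, SE 0.07 with the term, edgeR adjusted p = 0.8721). How many of all genes have the same sign at all 3 positions was not counted, and nothing is read from it.

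The term for library position narrowed the errors of the 7 genes. In the unstimulated comparison the SE was 0.17 with and 0.83 without it for per1a, 0.11 and 0.62 for per1b, and 0.19 and 0.72 for nr1d1. It hardly changed those of nr1d4a (0.35 and 0.36) and nr1d4b (0.16 and 0.17). A term for position takes out differences between positions, and the members were picked with those differences known. The narrowing follows from that choice, and nothing is read from it. With the term, 0 of 9 members passed in each of the 5 contrasts. Of all 26508 genes, that fit called 1 for ifih1mut against control larvae and 0 for poly I:C in control larvae. It called 234 for ifih1mut against control larvae with poly I:C, 277 for poly I:C in ifih1mut larvae and 79 for the difference of effects. Beside such small shares, 0 of 9 says little about the members. An unadjusted p under 0.05 was found with the term for per2 between the stimulated genotypes and for nr1d1 with poly I:C in control larvae. Over all genes that fit had 6.52% and 3.98% at an unadjusted p under 0.05 in these comparisons. For nr1d1 the log2 fold change was then -0.44 (SE 0.19, edgeR adjusted p = 1).

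**Figure D4:**
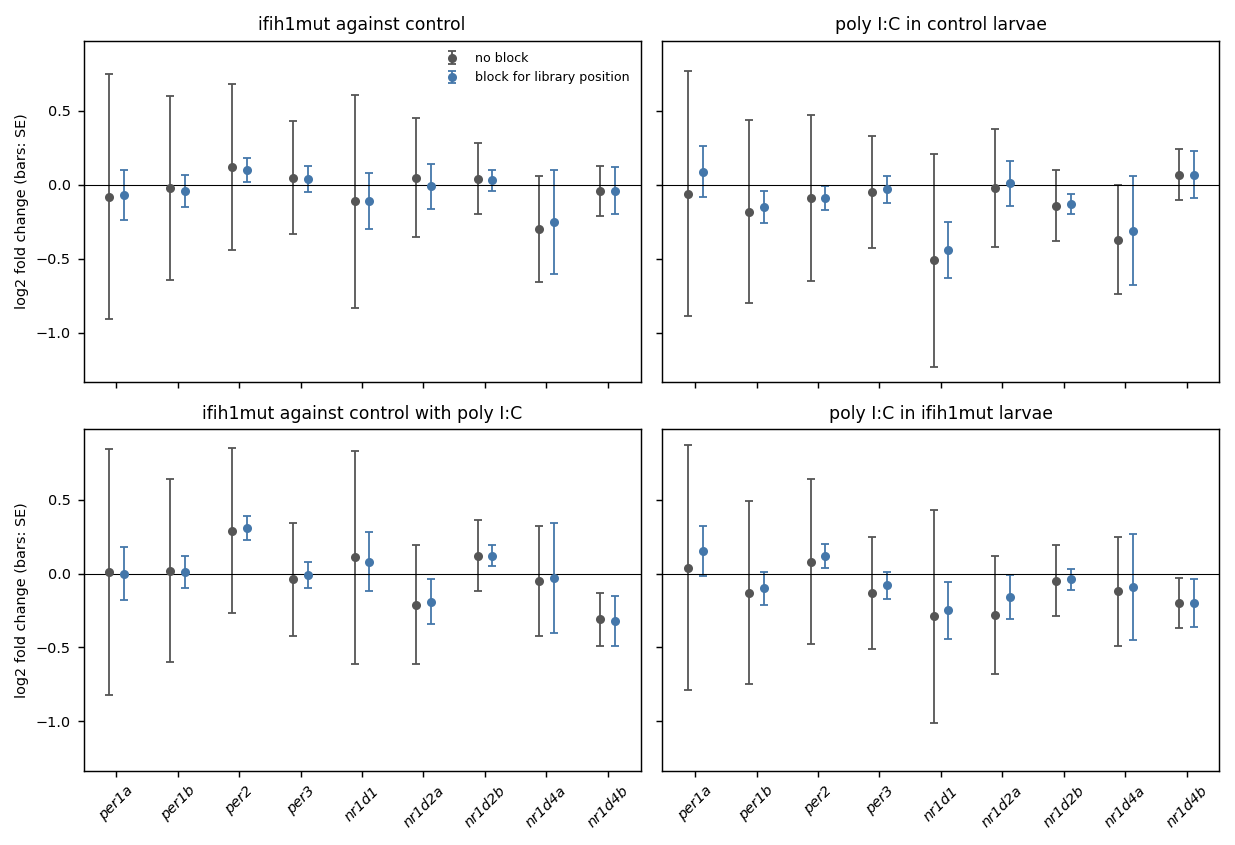
Log2 fold change (vertical axis) of the 9 genes in 4 comparisons, without (grey) and with (blue) a term for library position in the edgeR model, with bars of 1 SE. The blue bars are much the shorter for the genes that vary with position, and 0 of 9 genes passed an adjusted p under 0.05 with either.

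The 34 other clock genes gave the same count, 0 of 34 called in each of the 5 contrasts, with 0 at an unadjusted p under 0.05 in edgeR and 0 in DESeq2. Their median log2 fold change lay between -0.08 and 0.07 over the 5 contrasts. With the term for position 4 of 34 had an unadjusted p under 0.05 for ifih1mut against control larvae with poly I:C and 2 of 34 for poly I:C in ifih1mut larvae, and 0 were called (edgeR adjusted p of 0.2898 or above). Of all genes, 6.52% and 7.21% had such a p in that fit. In the authors' deposited tables each of the 9 members had an adjusted p of 1 in the 3 comparisons they cover. Few of all genes listed there were under 0.05. Between the stimulated genotypes these were 261 of 31293 (0.834%), and between the unstimulated genotypes 5 of 31893 (0.0157%). The comparison of stimulated over unstimulated control larvae had 7 of 31617 (0.0221%). Beside such small shares, the authors' values also say little about the members. The fold changes of nr1d1 in the authors' deposited tables were -0.51 for poly I:C in control larvae, 0.11 for ifih1mut over control larvae with poly I:C and -0.11 without.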

How the data were processed

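Per the file headers, the authors deposited 3 comparison tables of 6 libraries each, with a raw count per gene and library, a log2 fold change, p-values before and after adjustment, gene names, coordinates and gene lengths. Aligner, counter, build, annotation version, strand setting: not given in the sources used here. Counts were joined by gene identifier into 32349 genes. Genes missing from a table (6372 values) were set to 0, since each listed gene has at least 2 counts in its table. The 36 columns of values normalized by the authors were not used.

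Groups came from the titles and column names. Position ranks the library numbers within a group. Genes were filtered with filterByExpr (minimum count 10, minimum total 15), scaled by TMM and tested across all genes with edgeR 4.0.16 (quasi-likelihood F-test, 1 coefficient per group, 8 residual degrees of freedom, Benjamini-Hochberg adjusted p under 0.05) in R 4.3.3. CPM is the count scaled by the TMM-adjusted library total (cpm in edgeR), and CPM per kilobase divides it by the deposited gene length. Without stated strand setting, sense and antisense reads cannot be told apart. The fit was tested on simulated data with known changes.

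Members and lists were chosen with earlier results of these data known. Of 66 list symbols, 5 matched no gene. Named genes were the members, ifih1, cyp1a, list genes, and the 2 nearest profiles of each member spanning at least 1 on the log2 scale. Alternatives were RLE factors, DESeq2 1.42.0, no filter, only the groups compared, a term for position, and leaving out each library, position or (for position differences) group.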

Additional observations from a re-analysis of the deposited data

How the results depend on the processing

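The count of members called was 0 of 9 in each of the 5 contrasts, and it was 0 in the 99 refits with RLE size factors, DESeq2, no filter, only the groups compared, a term for library position, 1 library left out (0 to 0) or 1 position left out. None of 891 refitted fold changes was called (0), and the lowest adjusted p was 0.2539, for per2 between the stimulated genotypes with the term for position. Signs turned in 128 of the 891, which were all of uncalled values. Over all genes, edgeR against DESeq2 called 1 and 2 genes for ifih1mut against control larvae, 159 and 272 with poly I:C, 183 and 307 for poly I:C in ifih1mut larvae and 41 and 136 for the difference of effects. With the term for position edgeR called 79 in the last and 277 in poly I:C in ifih1mut larvae, and 0 members. The difference between effects was not refitted on the compared groups alone, since it needs all 4. The difference between the third and second libraries had a median over the members of 1.05 and lay between 1.01 and 1.18 with RLE factors or a group left out, and that between the third and first a median of 0.63 (0.53 to 0.72). None of the 90 rerun values of the 9 members moved by more than its SD over the groups. With a group left out a mean cannot move that far, so only the rerun with RLE factors was able to show such a move. No paired analysis was possible because the columns carry library numbers and not the replicate numbers of the titles, so pairing by those numbers could not be made. The titles also number the unstimulated ifih1mut pools differently from the pools of the other groups. The term for position matches libraries by their library numbers only. Depth limits nr1d4a most, at 33 counts in its lowest library.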
